A study of Gallus gallus with 2 samples.

Results

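The genes described here are 40 genes of macrophages, granulocytes and inflammation, followed in the ileum of chickens fed corn or paddy rice. They were listed by name, but with earlier results of these data already known. Of the 40 genes, 37 had a chicken probe set that the array annotation gave to a single gene, out of 13008 named genes on the array. The other 3, CD14, CCR2 and FLT3, had no probe set under any of their names in that annotation and are not analysed here. The 37 measured genes were read by 54 probe sets, and each gene is represented by its brightest probe set, that of the highest average log2 signal.

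The birds were male White Leghorn layer chicks in groups of 9, which ate a diet with 650 g/kg of corn (the control) or 650 g/kg of paddy rice for 2 wk, from 1 to 3 wk of age, and crude protein and metabolizable energy differed between the diets. Ileal segments were flushed and taken whole, so that epithelium, lamina propria and muscle were read together. From each diet 3 birds, picked because their ileal MUC2 expression was typical of the group, gave RNA that was pooled and hybridised to 1 GeneChip Chicken Genome Array per diet. There is thus no replicate error and no p-value, and each ratio (signal on paddy rice over signal on corn) compares a pair of pools.

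Macrophages arise from blood monocytes under the growth factor receptor CSF1R and the transcription factor SPI1 (PU.1). In the gut wall they engulf microbes and dead cells, coat targets with complement C1q, digest them with lysosomal cathepsins and produce oxidants through the phagocyte NADPH oxidase. Heterophils, the granulocytes of birds that take the place of mammalian neutrophils, develop under CSF3R. Inflammatory signals act through the transcription factor NF-kB, which induces cytokines, the chemokine CCL20 and the prostaglandin synthase PTGS2, and also its own inhibitors NFKBIA and TNFAIP3.

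Both arrays had been scaled by the authors to the same mean signal, and the median log2 ratio of all chicken probe sets was -0.0082. The 3'/5' signal ratio of ACTB, a gauge of RNA integrity, was 1.51 with corn and 1.52 with paddy rice. All 13 measured markers of enterocytes, the absorptive cells of the ileum, were above background on both arrays. Background was set at the 95th percentile of 689 probe sets without the chicken prefix (44.1 with corn, 45.1 with paddy rice). Where a gene had several probe sets, the SD of their log2 ratios around the gene was 0.97 with no filter, 0.27 from the median signal (111) upwards and 0.16 from the 75th percentile (522) upwards, so that ratios of dim genes were far less precise.

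Most of the macrophage and inflammatory genes had like signals on the arrays. Of the 37 measured genes, 31 had ratios between 0.67 and 1.5, the thresholds that the methods of the study set, 4 were above 1.5 and 2 were below 0.67. These are 10.8% and 5.41% of the measured genes, beside 8.27% and 8.57% of all named genes. Between the thresholds lay 10817 of the 13008 named genes, so the count of 31 does not set the listed genes apart. Ratios were above 1 for 22 of the 37, and 49.5% of all named genes were above 1. The median log2 ratio was 0.069 over the 37 genes (ratio 1.05), and -0.0029 over all named genes. Of the 6 genes past a threshold, only NCF4 was among the 31 genes above background on both arrays. Of all named genes 82.5% were above background on both, and there 3.24% lay above 1.5 and 3.01% below 0.67. The other 5 were NCF1, IL1B, CSF3R, MMP7 and MMP9, whose signals reached background on 1 array or on neither.

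**Figure D1:**
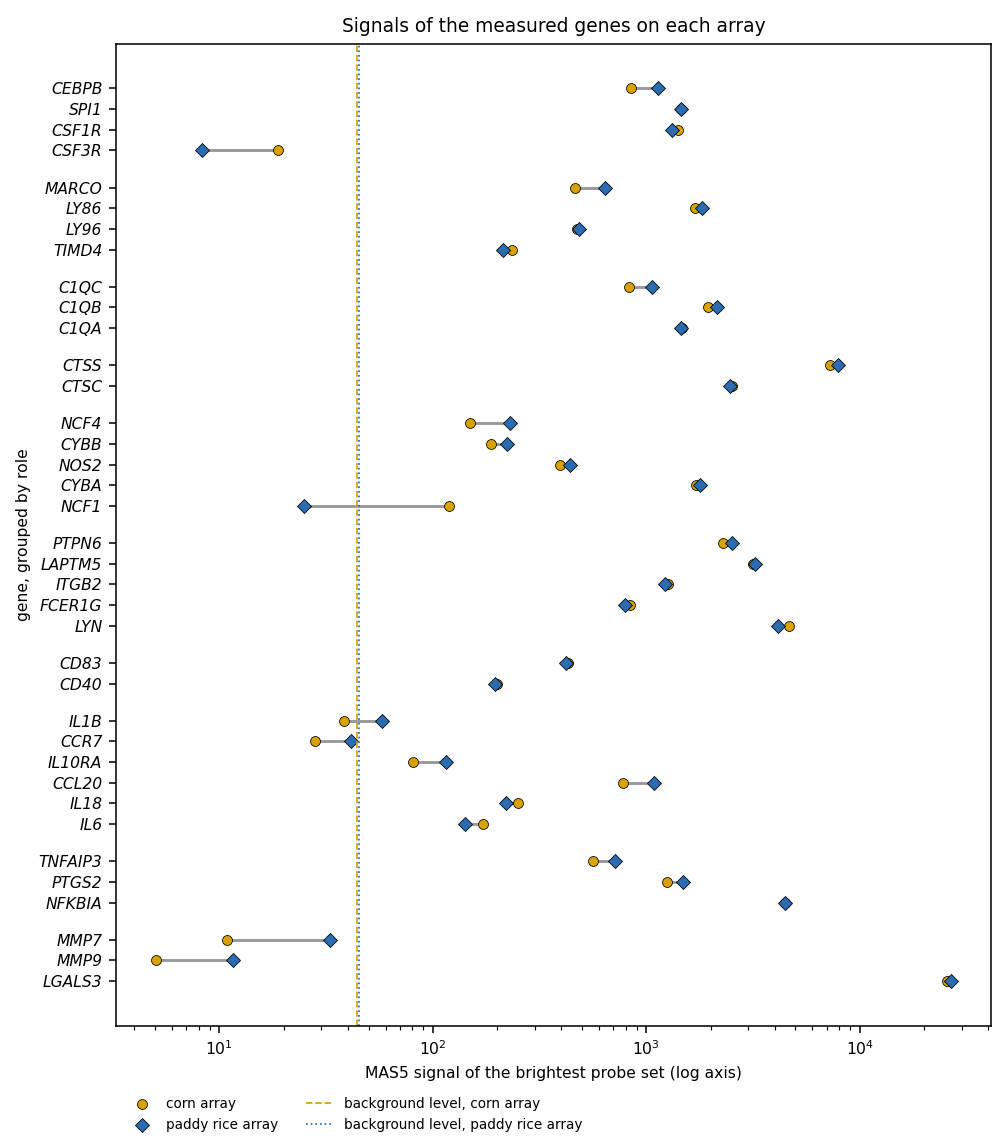
MAS5 signal (log axis) of the brightest probe set of each of the 37 measured genes on the corn array (circles) and the paddy rice array (diamonds), grouped by role, with the background level of each array as a vertical line. The markers of 31 genes lie to the right of both background lines, and the widest gap among them is that of NCF4, from 149 to 230.

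Being above background does not test the labels macrophage, granulocyte and inflammatory, since 82.5% of all named genes were on both arrays. CSF3R, the granulocyte receptor of the list, was not read above background. Of the inflammatory genes, CCL20, IL6, IL18, TNFAIP3, NFKBIA and PTGS2 were above background on both arrays. IL1B was under background on corn, and CCR7, MMP7 and MMP9 were under it on both arrays. CSF1R, SPI1, LY86, MARCO and the C1q chains, which macrophages express, though not all of them alone, were above background on both arrays. The signals of CSF3R were 18.8 with corn and 8.31 with paddy rice, under background on both, so that its ratio of 0.442 does not give the size of a difference. Of 17 measured genes of heterophil granules and effectors, 10 were above background on both arrays (82.5% of all named genes were) and 6 reached the median signal. In bulk tissue, fewer cells of a type and less RNA per cell cannot be told apart.

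On their brightest probe sets the lineage genes of macrophages were level between the diets. CSF1R, the receptor for colony-stimulating factor 1, read 1415 with corn and 1324 with paddy rice (ratio 0.936). All 4 of its probe sets lay below 1, the others at 0.719 and 0.988 where they reached the median signal and at 0.361 on the dimmest, where the paddy rice signal of 28.1 was under background. SPI1, which sets the myeloid programme, went from 1461 to 1452 (ratio 0.994), and its second probe set was at 0.966. CEBPB, a transcription factor of macrophages that is induced in inflammation, was the exception of this group. It read 851 with corn and 1136 with paddy rice (ratio 1.33) on a single probe set, and 1.87% of the 5782 genes from the 75th percentile of signal upwards had a higher ratio. CEBPB lay at percentile 83.8, and that class also holds much brighter genes, with more precise ratios.

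Of the receptors for microbes and dead cells, MARCO was higher on paddy rice and the others were close to 1. MARCO, a scavenger receptor that binds bacteria, read 461 with corn and 637 with paddy rice. Its ratio of 1.38 was exceeded by 1.4% of the genes from the 75th percentile of signal upwards. MARCO lay at the lower edge of that class, at percentile 75.5, and most genes of the class were brighter and had more precise ratios. LY96 (MD-2), the partner of Toll-like receptor 4 in sensing lipopolysaccharide, went from 473 to 482 (ratio 1.02). LY86 (MD-1), the partner of CD180, went from 1684 to 1825 (ratio 1.08). TIMD4, a receptor for phosphatidylserine on dying cells, went from 234 to 214 (ratio 0.915), on a probe set marked as shared between transcripts. The probe set of TIMD4 that is not marked as shared gave 1.15, so that no direction can be read for this gene.

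The C1q chains, which assemble into the recognition unit of the classical complement pathway and are made mostly by macrophages, ranged from 0.990 to 1.27. In the RefSeq gene order (assembly GRCg7b) C1QB, C1QC and C1QA lie side by side with 0 protein-coding genes between them. C1QA went from 1467 with corn to 1451 with paddy rice (ratio 0.990). C1QB went from 1952 to 2143 (ratio 1.10), and its second probe set was at 1.03. C1QC went from 834 to 1063, and its ratio of 1.27 was exceeded by 3.22% of the genes from the 75th percentile of signal upwards. C1QC lay at percentile 83.3, and that class also holds much brighter genes. The chains of this single protein complex thus did not share a ratio, and C1QA, which was level, and C1QC each rest on 1 probe set.

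The lysosomal cathepsins CTSS and CTSC were level. CTSS (cathepsin S), which trims the invariant chain of MHC class II, had signals of 7249 and 7903 on corn and paddy rice (ratio 1.09). CTSC, which activates granule proteases, had signals of 2530 and 2465 (ratio 0.974). Each was read by 1 probe set, marked as shared between transcripts.

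The subunits of the phagocyte NADPH oxidase did not move together, and they include NCF4, the only gene here with a ratio past a threshold while above background on both arrays. CYBB, the catalytic membrane subunit, read 188 with corn and 223 with paddy rice (ratio 1.19). CYBA, its membrane partner, went from 1714 to 1790 (ratio 1.04), and from 879 to 1042 on its second probe set (ratio 1.19). Every probe set of the membrane subunits thus read above 1, by less than the threshold. On the brightest ones the log2 ratios, 0.063 for CYBA and 0.247 for CYBB, lay within 1 SD of the spread between probe sets (0.16 and 0.27). The second probe set of CYBA, at 0.246, lay beyond it. NCF4, a cytosolic subunit that binds phosphoinositides, read 149 with corn and 230 with paddy rice (ratio 1.55). With the offset of 34.5 added to every signal it was at 1.44, and with the median of its probe sets at 1.481, both under the threshold. The second probe set of NCF4 went from 89.8 to 127 (ratio 1.42), and 3.35% of the 3458 genes between the median and the 75th percentile of signal had a higher ratio than its brightest. NCF1, the cytosolic organiser of the complex, carries the current symbol NCF1C and went the other way. Its signal was 119 on corn, above background, and 24.9 on paddy rice, under background. Set against the background level of the paddy rice array, it was at least 2.64-fold lower on paddy rice, or at least 1.24-fold with the 99th percentile as background. The probe set of NCF1 is its only one and is marked as shared between transcripts, and among the 3768 genes below the median signal 5.23% had a lower ratio and 24% and 25.4% lay above 1.5 and below 0.67.

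A wider list of the NADPH oxidases and their regulators, which includes CYBB, CYBA, NCF1 and NCF4, had 13 measured genes, 8 of them from the median signal upwards. Of these 8, NCF4 was above 1.5 and NOXO1 was below 0.67, where 1.87% and 1.71% of all named genes from the median signal upwards lay above 1.5 and below 0.67. NOXO1, the organiser of the epithelial oxidase NOX1, went from 289 to 183 (ratio 0.634), and its second probe set was at 1.37. RAC2, the GTPase that activates the oxidase in leukocytes, went from 1506 to 1563 (ratio 1.04). NOS2, the inducible nitric oxide synthase by which chicken macrophages make nitric oxide, was at 393 and 438 (ratio 1.11). Of 6 genes of nitric oxide and arginine metabolism from the median signal upwards, none was past a threshold.

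**Figure D2:**
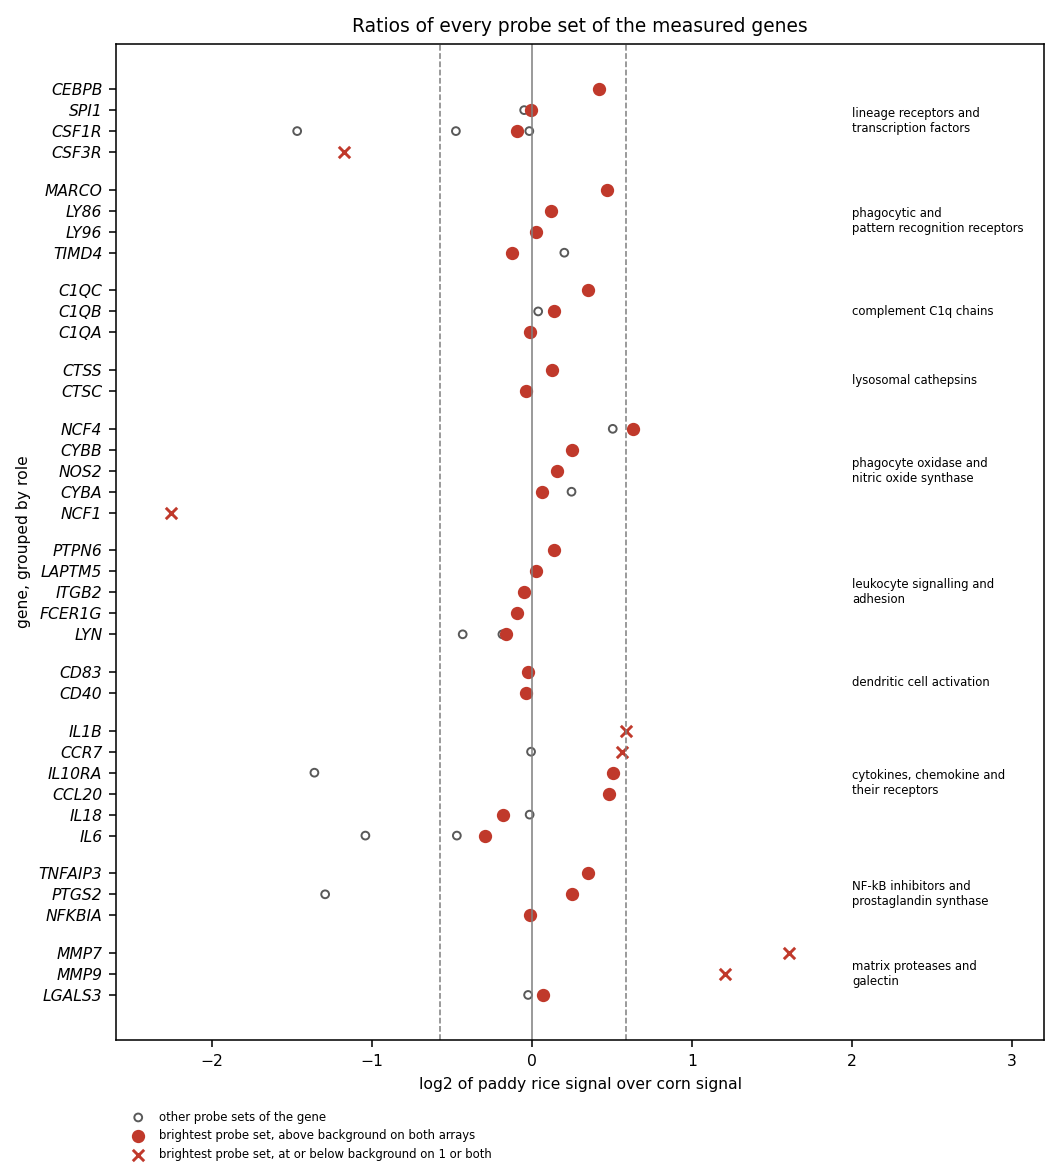
Log2 ratio of paddy rice over corn for the brightest probe set of each measured gene (filled circles where above background on both arrays, crosses where at or below it on 1 or both) and for its other probe sets (open circles), grouped by role. Dashed lines mark ratios of 0.67 and 1.5; only NCF4 has a filled circle beyond them, and NCF1, at 0.209, lies far to the left.

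Genes of leukocyte signalling and adhesion lay between 0.894 and 1.10. LAPTM5, a lysosomal membrane protein of blood cells, went from 3158 with corn to 3216 with paddy rice (ratio 1.02). ITGB2, the beta chain of the leukocyte integrins, went from 1266 to 1224 (ratio 0.967). FCER1G, the signalling chain of Fc receptors, went from 843 to 791 (ratio 0.938). These genes, expressed mainly by blood cells, were thus close to equal signals. LYN, a Src family kinase of B cells and myeloid cells, was the lowest of the group, going from 4649 to 4154 (ratio 0.894). Its other probe sets were at 0.879 and, on one below the median signal, 0.740, all on the same side of 1. On the same arrays 11 genes of B and plasma cells went from a summed signal of 4327 to 2060. Without JCHAIN the other 10, with no filter on signal, went from 1923 to 1756, with 5 of them above 1. Of the 5 that reached the median signal, JCHAIN among them, 1 was above 1, and their median log2 ratio was -0.25. The part of B cells in the value of LYN was not tested. PTPN6 (SHP-1), the phosphatase that restrains such kinases, went from 2289 to 2518 (ratio 1.10).

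CD40 and CD83, which dendritic cells raise when they mature, were level. CD40 gave 199 with corn and 195 with paddy rice (ratio 0.975). CD83 had signals of 428 and 419 (ratio 0.980). CCR7, the receptor that leads mature dendritic cells to lymphoid tissue, was under background on both arrays, at 28.0 and 41.4.

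Among cytokines, CCL20 was higher on paddy rice, while the interleukins gave no common direction. CCL20, an epithelial chemokine that draws CCR6-bearing lymphocytes and dendritic cells to the gut, read 781 with corn and 1090 with paddy rice. Its ratio of 1.4 was exceeded by 1.30% of the genes from the 75th percentile of signal upwards. CCL20 lay at percentile 83.0, and that class also holds much brighter genes, with more precise ratios. IL1B, an interleukin released by activated macrophages, had signals of 38.5 and 57.8. The corn signal was under background, and against the background level the gene was at least 1.31-fold higher on paddy rice, below the threshold that its measured ratio of 1.503 just passed. With the 99th percentile as background neither array read IL1B, and with the 90th percentile both did. IL6 went from 172 to 141 (ratio 0.817), and its other probe sets, with signals of 46.1 and 39.0 on corn, were at 0.722 and 0.486. All 3 probe sets of IL6 were thus lower on paddy rice, most where the signals were dimmest, but only the brightest was above background on both arrays. The others read 33.3 and 18.9 on paddy rice, under background, and the dimmest was under it on corn too. IL18, an interleukin that epithelium also makes, went from 249 to 220 (ratio 0.883), and its second probe set was at 0.989. IL10RA, the receptor chain for interleukin 10 that restrains macrophages, went from 81.0 to 115 (ratio 1.42) on a probe set below the median signal. The second probe set of IL10RA, under background on both arrays at 14.1 and 5.50, gave 0.389. The ratio of 1.42 therefore rests on 1 probe set.

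The feedback inhibitors of NF-kB differed. TNFAIP3 (A20), a ubiquitin-editing enzyme, read 561 with corn and 716 with paddy rice (ratio 1.28). Of the genes from the 75th percentile of signal upwards 3.18% had a higher ratio, and TNFAIP3 lay low in that class, at percentile 77.8. NFKBIA, which holds NF-kB in the cytoplasm, went from 4485 to 4441 (ratio 0.990). PTGS2, the inducible prostaglandin synthase, went from 1246 to 1484 (ratio 1.19), while its second probe set, under background on both arrays at 28.3 and 11.5, gave 0.408. The ratio of PTGS2 therefore rests on 1 probe set, which is marked as shared between transcripts.

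The matrix proteases were not read at a usable level. MMP7, a matrilysin of mammalian epithelium, had signals of 10.8 and 32.9 and MMP9, the gelatinase of heterophils and macrophages, of 5.04 and 11.6, all under background, and their ratios of 3.05 and 2.30 do not give the size of a difference. LGALS3, a galectin of macrophages that intestinal epithelium also expresses, gave 25622 with corn and 26883 with paddy rice (ratio 1.05), and a ratio of 0.983 on its second probe set.

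Among the brighter genes, those furthest from equal signals were mostly on the higher side of 1. From the 75th percentile of signal upwards there were 21 of the 37 genes, none of them past a threshold, where 0.623% and 0.329% of all named genes were above 1.5 and below 0.67. Of these 21, 14 lay within 1 SD of the spread between probe sets of the same gene (0.16 on the log2 scale). Beyond 1 SD, 6 were higher on paddy rice (MARCO, C1QC, CEBPB, CCL20, TNFAIP3 and PTGS2) and 1 was lower (LYN). These are 28.6% and 4.76% of the 21, beside 15.9% and 15.8% of all named genes of that signal. None of the 6 has a second probe set that bears it out. MARCO, C1QC, CEBPB, CCL20 and TNFAIP3 have 1 probe set each, and the second of PTGS2, under background, was at 0.408. MARCO, TNFAIP3, CCL20, C1QC and CEBPB lay in the lower part of this class of signal, at percentiles from 75.5 to 83.8. The SD and the shares over all named genes also cover much brighter genes, with more precise ratios, so they are not matched to these 5. Whole tissue does not show which cells gave the signal of any of the 6 higher genes. CEBPB, CCL20 and TNFAIP3 are among those that epithelium or stroma also express. The SD is a spread within a pair of arrays, not among birds. Between the median and the 75th percentile of signal there were 9 genes with ratios from 0.817 to 1.55, 1 of them above 1.5, where 3.96% and 4.02% of all named genes were above 1.5 and below 0.67, and 7 genes lay below the median signal. Of 6 genes with several probe sets from the median signal upwards, all but LGALS3 had them on the same side of 1. The like share over all named genes was not counted, and every probe set of SPI1 and C1QB lay within 1 SD of equal signals.

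**Figure D3:**
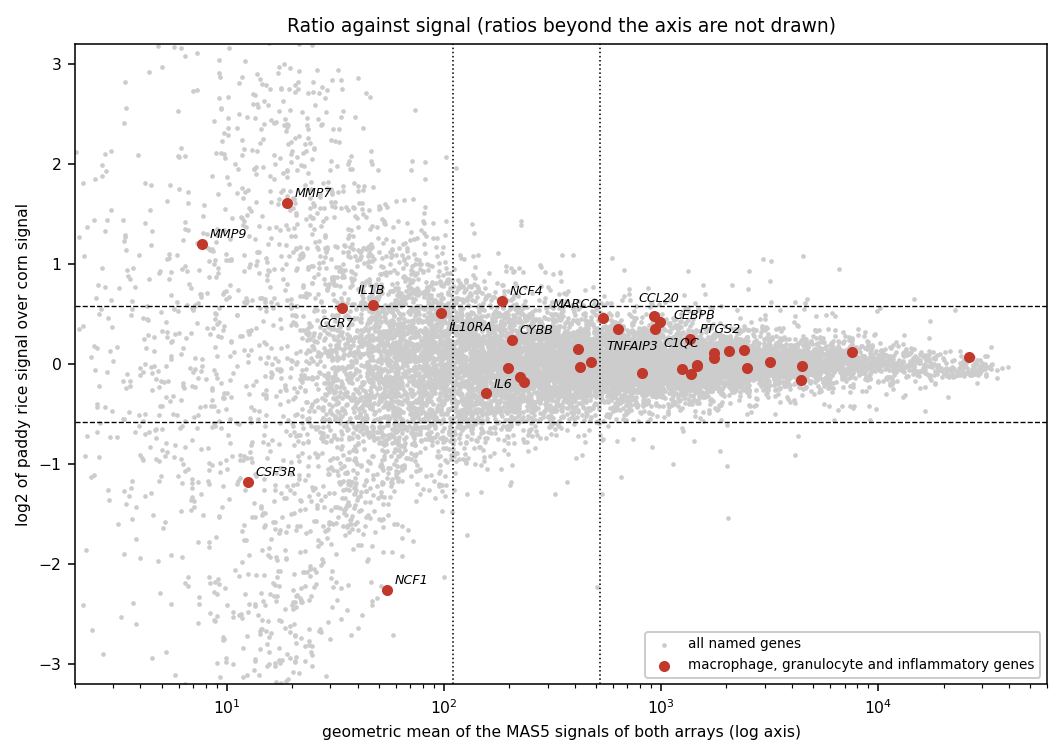
Log2 ratio of paddy rice over corn against the geometric mean of both signals (log axis) for all 13008 named genes (grey) and the 37 genes of macrophages, granulocytes and inflammation (red). Dotted lines mark the median and the 75th percentile of signal and dashed lines the ratios 0.67 and 1.5; the grey cloud widens to the left, where MMP7, MMP9, CSF3R and NCF1 lie, and to the right of the second dotted line CCL20, MARCO and CEBPB sit at its upper edge.

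Related genes of the same pathways, in lists that include the genes above where they belong, mostly lay between the thresholds too. Of 14 chemokine and chemokine receptor genes from the median signal upwards, 10 were higher on paddy rice (49.3% of all named genes of that signal were), none was past a threshold, and the median log2 ratio was 0.15, beside -0.0031 over all named genes from the median signal upwards. Of 19 genes of cathepsins and related lysosomal proteins, 14 had a ratio above 1 and the median was 0.040. CD63, a tetraspanin of lysosomes and secretory granules, was the only 1 of the 19 above 1.5, with signals of 2582 and 3961 (ratio 1.53). Of all named genes from the median signal upwards 1.87% were above 1.5. All 5 galectins measured had ratios above 1 on their brightest probe sets, with a median of 0.12. However, LGALS3 lay on the other side of 1 on its second one, and the probe sets of LGALS8 ran from 0.0245 to 1.41. Of 30 genes of the NF-kB pathway 16 were higher and none was past a threshold, with a median of 0.016, so that TNFAIP3 did not stand in a list that was higher as a whole.

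The lists of myeloid receptors, myeloid transcription factors and haematopoietic signalling genes gave medians slightly below 0. They also hold genes that other cells express, such as PTPRC, so that these medians are not values of myeloid cells alone. The median log2 ratio was -0.028 over 26 myeloid receptors and adhesion molecules, -0.086 over 15 myeloid transcription factors and -0.048 over 24 haematopoietic signalling genes. Over all named genes from the median signal upwards it was -0.0031. Of the receptors, TREM2, a lipid receptor of macrophages, was above 1.5 with signals of 111 and 172 and a ratio of 1.55, and its second probe set was at 1.64. CD9, a tetraspanin, was below 0.67 at 567 and 347 (ratio 0.611) on a probe set marked as shared. They were the only ones of the 26 receptors past a threshold, where 1.87% and 1.71% of all named genes of that signal were above 1.5 and below 0.67. PTPRC (CD45), found on all leukocytes and named here after its value was seen, went from 2227 to 2134 (ratio 0.958).

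Of 15 complement genes from the median signal upwards, 7 were higher on paddy rice (49.3% of all named genes of that signal were). C8G, a chain of the membrane attack complex, was below 0.67 with signals of 263 and 127 and a ratio of 0.484, where 1.71% of those genes were. C1R and C1S, the proteases that join C1q in the C1 complex, were at 1.42 (1.20 on a second probe set) and 1.30 and were also named after their values were seen. In the same tissue all 10 fibroblast markers had ratios above 1 on their brightest probe sets (49.3% of all named genes from the median signal upwards did). COL1A2, COL3A1, COL6A1 and POSTN also had probe sets below 1, the lowest at 0.565, of COL1A2. The median log2 ratio of the 10 markers was 0.16 and their summed signal went from 78785 to 85078. Their part in the ratios of C1R and C1S, and in those of the 6 higher genes named above, was not tested.

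Of 19 genes of interleukins, growth factors and their receptors, 8 were higher (49.3% of all named genes of that signal were) and LIF, an interleukin 6 family cytokine, was below 0.67 with signals of 155 and 89.7 and a ratio of 0.579 (0.599 on its second probe set), where 1.71% of all named genes were. The 15 genes of prostaglandins and leukotrienes had a median of -0.071 and none past a threshold. Of 10 matrix metalloproteinases and inhibitors, MMP10 was above 1.5 with signals of 429 and 654 (ratio 1.52) and MMP16 below 0.67 with signals of 153 and 98.4 (ratio 0.644), beside 1.87% and 1.71% of all named genes of that signal. Of these 10 genes 2 had a ratio above 1, and the median was -0.094. DEFB4A, a beta-defensin of heterophils listed under its chicken name AvBD2, went from 108 to 169 (ratio 1.56). It was 1 of 6 genes of heterophil granules and effectors that reached the median signal, of which 2 were above 1, with a median log2 ratio of -0.051. DEFB4A alone of these was above 1.5, where 1.87% of all named genes of that signal were.

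**Figure D4:**
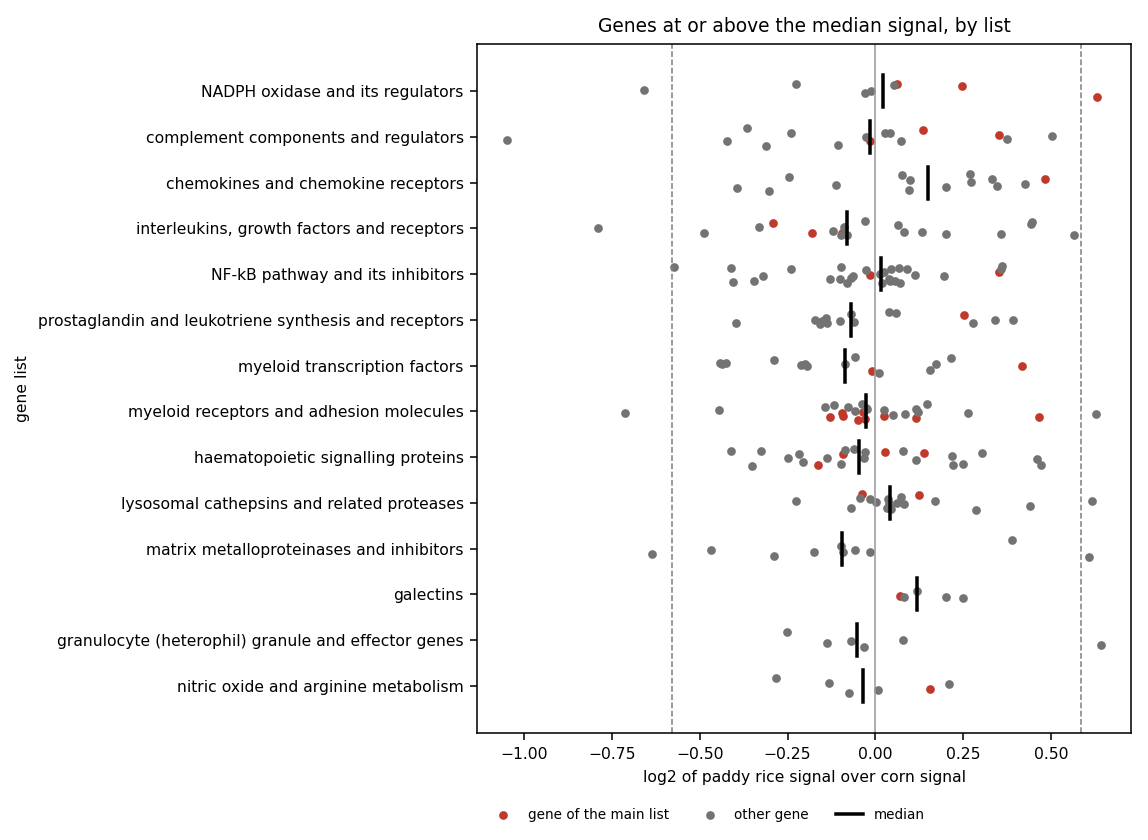
Log2 ratio of paddy rice over corn for each gene from the median signal upwards in 14 lists of related genes, with genes of the main list in red, other genes in grey and the median as a black bar. Dashed lines mark ratios of 0.67 and 1.5; the medians run from -0.094 for matrix metalloproteinases to 0.15 for chemokines, and few points lie beyond the dashed lines.

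Markers of lymphocytes were read on the same arrays. JCHAIN, the joining chain made by plasma cells, read 2404 with corn and 303 with paddy rice (ratio 0.126). The other 10 measured genes of B and plasma cells lay between 0.667 and 1.41. The lowest, CD79B, was just below the 0.67 threshold at a signal below the median, where 25.4% of all named genes were below it. The 5 genes of this list that reached the median signal had a median log2 ratio of -0.25. No immunoglobulin chain is in the list. The paper reports JCHAIN, under the name IGJ, and IGLL1 as lower on paddy rice by microarray. By real-time PCR on 9 birds per diet it reports both of them, and IGHA, as lower in the intestine. In a separate experiment it reports less total IgA in bile. The 15 measured T and NK cell genes went from a summed signal of 19658 to 21336, and from 11870 to 11590 without GZMA, a granzyme of cytotoxic cells. The 9 that reached the median signal had a median log2 ratio of -0.023. The 31 macrophage, granulocyte and inflammatory genes above background on both arrays had ratios from 0.817 to 1.55. Among them the lineage genes CSF1R, SPI1 and CEBPB lay from 0.936 to 1.33, and the genes of leukocyte signalling and adhesion from 0.894 to 1.10. The C1q chains lay from 0.990 to 1.27 and the receptors for microbes and dead cells from 0.915 to 1.38. The difference between these genes and JCHAIN was not tested, since 1 array per diet gives no error.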

How the data were processed

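The authors hybridised pooled ileal RNA to 1 GeneChip Chicken Genome Array per diet and summarised the probes with MAS5 in the scanner maker's software. They deposited linear signals (unit: intensity), 1 for each probe set and without detection calls, whose mean trimmed by 2% at each end was 499.95 on both arrays. Here 37693 chicken probe sets were used, of which 27166 had 1 gene in an annotation that may be out of date, 177 several (not named) and 10350 none. Symbols were updated by Entrez identifier with the RefSeq table of GRCg7b, which held 26851. CATHL1, AvBD2, NCF1 and a few others were found by an older name. MAS5 leaves dim signals noisy, so ratios there are imprecise.

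Ratios above 1.5 or below 0.67 were counted with no filter on low signals here; whether the study filtered its probe sets before counting is not given in the sources used here, so these counts are not those of the study. No test between diets was possible. Ratios were put on a log2 scale, whereas the deposited signals are linear. All 40 genes are accounted for; of related lists, up to 4 genes per list past a threshold at or above the median signal were named, and others only where stated. The genes and lists were chosen with earlier results of these data known, and synonyms that pointed to other genes were dropped after the matches were seen. A gene under background on 1 array was given as at least the fold against the background level. Alternatives were signal filters, median centring, quantile normalization, loess centring (fraction 0.3), an offset of 34.5, the median of all probe sets of a gene, omission of probe sets marked as shared (identifiers ending in _s_at, _x_at or _a_at), thresholds of 2 and 0.5 and other background levels. Sums of lymphocyte markers without JCHAIN or GZMA were added after seeing the data. Python 3.11.15, numpy 2.4.6, pandas 2.3.3, statsmodels 0.14.6 and matplotlib 3.10.9 were used.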

Additional observations from a re-analysis of the deposited data

How the results depend on the processing

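The number of arrays, 1 per diet, limits every ratio, and dim signals limit the 7 genes below the median signal most. Against 4 genes above 1.5 and 2 below 0.67, adding the offset of 34.5 to every signal left 0 above and 1 (NCF1, at 0.387) below. With that offset 3.74% and 4.14% of all named genes were above 1.5 and below 0.67, against 8.27% and 8.57% without it. Keeping only genes at or above the median signal left 1 (NCF4) and 0, beside 1.87% and 1.71% of all named genes. The 75th percentile left 0 and 0, beside 0.623% and 0.329%. NCF4 was at 1.44 with the offset and at 1.481 when its probe sets were summarised by their median, under the threshold in both. A threshold of 2 kept 2 genes above it, MMP7 and MMP9, both under background on both arrays. Under median centring, quantile normalization, loess centring, the median over probe sets and omission of shared probe sets, 3 to 5 genes were above 1.5 and 2 below 0.67. CCR7 joined those above 1.5 at 1.51 under quantile normalization and loess centring. Under the same settings 8.4% to 10.7% of all named genes were above 1.5 and 8.45% to 11% below 0.67. Without shared probe sets 30 of the listed genes were left, and the 2 below 0.67 were CSF3R and PTGS2 in place of NCF1. The median log2 ratio ran from 0.026 (median over probe sets) to 0.10 (quantile normalization). With the median over probe sets CSF1R was at 0.820, IL10RA at 0.744 and PTGS2 at 0.697. Without shared probe sets PTGS2 was at 0.408 and LGALS3 at 0.983. SPI1 lay between 0.980 and 1.00. With the 90th or 99th percentile as background, 32 and 31 genes were above it on both arrays, against 31. For the fold bounds these levels were added after seeing the data: NCF1 was at least 3.38-fold and 1.24-fold lower; IL1B was above background on both arrays at the 90th and on neither at the 99th percentile. No paired analysis was possible because each diet has 1 array.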
